A study of Homo sapiens with 6 samples.

Results

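The genes described here are 43 members of the NF-kB system: the DNA-binding subunits, their inhibitors and kinases, the adaptors and feedback regulators around them, and inflammatory target genes with cytokines and chemokines among them. They were taken by symbol from the deposited gene tables, where all 43 were found, each at 1 place, among 23698 gene rows. The tables hold RNA-seq counts from MV4-11, a leukaemia cell line of monocytic type with an internal tandem duplication in FLT3. In 3 libraries the cells carried a lentiviral short hairpin RNA against PRMT5, an arginine methyltransferase (knockdown 1 to 3), and in the other 3 a scrambled hairpin (control 1 to 3). Cells of both groups were stably transduced and grown in the same medium with serum. No inflammatory stimulus is given in the labels. The labels name no separate cultures, no second hairpin and no clone, so p-values measure only the spread between these libraries, which may be technical.

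NF-kB factors are dimers of Rel-family proteins that wait in the cytoplasm bound to IkB inhibitors. Signals from receptors of TNF, interleukin-1 or microbial products activate the IkB kinase complex, the inhibitor is marked and degraded, and the dimer enters the nucleus. It then switches on inflammatory genes and also its own inhibitors and ubiquitin-editing enzymes, which close the loop. In myeloid cells these factors are known for driving cytokine and chemokine genes, and in many leukaemias for a basal activity without a stimulus.

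Several of the genes carry the short sequence that NF-kB dimers bind close to their start sites. Some of these stretches are shown because the genes below are grouped as its targets. RefSeq start sites (GRCh38.p14) gave windows of 250 bases before and 50 bases after the start for 34 of the 43 genes, IL8 being listed as CXCL8. The 10-base kappaB consensus was searched on both strands, and overlapping matches were counted as found. It occurred in 24 of the 57 windows of these genes (42.1%) and in 11.3% of all 35116 windows. By gene, 19 of 34 members (55.9%) had a match in at least 1 window, against 13.3% of all genes with a window. The members were listed as NF-kB factors and targets, so a higher share could be foreseen, and it was not tested. Genes with more windows also have more places for a match: the 34 members had 57 windows, and 27305 genes had 35116. Matches of TNFAIP3, NFKBIB, NFKBIZ, BCL3, BIRC3, MAP3K8 and CCL20, and further matches of CD83, NFKB2 and LTB, are not printed. Capitals mark the matched bases, and the strand is that of the gene.
NFKB1 (chr4:102501295-102501334, plus strand): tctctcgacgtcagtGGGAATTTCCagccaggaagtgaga
NFKB2 (chr10:102394456-102394524, plus strand): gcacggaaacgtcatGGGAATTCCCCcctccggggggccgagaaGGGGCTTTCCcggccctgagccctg
REL (chr2:60881512-60881552, plus strand): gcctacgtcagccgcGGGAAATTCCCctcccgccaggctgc
NFKBIA (chr14:35404806-35404845, minus strand): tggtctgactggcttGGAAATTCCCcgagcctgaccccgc
TNIP1 (chr5:151081052-151081091, minus strand): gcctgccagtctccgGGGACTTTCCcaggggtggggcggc
CD83 (chr6:14117681-14117746, plus strand): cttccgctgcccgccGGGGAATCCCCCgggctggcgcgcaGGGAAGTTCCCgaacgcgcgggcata
LTB (chr6:31582487-31582526, minus strand): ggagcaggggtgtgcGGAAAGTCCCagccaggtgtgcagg
IL6 (chr7:22727112-22727151, plus strand): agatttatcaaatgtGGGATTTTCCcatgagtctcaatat
CXCL1 (chr4:73869299-73869339, plus strand): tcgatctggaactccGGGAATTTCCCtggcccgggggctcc
CXCL2 (chr4:74099248-74099288, minus strand): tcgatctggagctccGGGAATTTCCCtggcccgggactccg
CXCL3 (chr4:74038743-74038783, minus strand): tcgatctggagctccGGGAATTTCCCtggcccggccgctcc
CXCL10 (chr4:76023650-76023689, minus strand): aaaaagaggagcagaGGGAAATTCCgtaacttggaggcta
CXCL10 (chr4:76023595-76023634, minus strand): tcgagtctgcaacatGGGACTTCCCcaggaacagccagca
CXCL1, CXCL2 and CXCL3, neighbouring paralogs, carry the same capital run, beginning 79, 78 and 79 bases before their start sites. TNF, IL8, IL1B, PTGS2 and ICAM1 were among the 15 members whose windows held no match, which says only that these letters are not in those windows. The windows come from a later genome build than hg19, the build named for the deposited tables, and a match is not evidence of binding in these cells.

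Library totals were 16408484 to 19077106 estimated counts. PRMT5 was at 103, 71.6 and 53 CPM (depth-scaled counts, using TMM factors) in knockdown 1 to 3. It was at 133, 53.2 and 158 CPM across the libraries labelled control 1 to 3. Its log2 difference (knockdown minus control) was −0.60 (SE 0.43, edgeR adjusted p = 0.926), and −0.94 without the library labelled control 2. Without that library 0 of 13853 tested genes had an edgeR adjusted p under 0.05. The fall of PRMT5 itself was thus not called, which limits what the comparisons below can show. The library labelled control 2 had a level of the knockdown group and goes against its label. That library also stood apart as a whole, with a correlation of log2 CPM over all tested genes of 0.876 to 0.923 with the other 5, which correlated at 0.952 to 0.995 among themselves. Knockdown 3 and control 3 were the most alike (0.995). All 14 markers of a monocytic leukaemia line passed the filter on low counts, and their summed level was 2026 to 2897 CPM in knockdown and 2200 to 2785 CPM in control libraries. CD14, the lipopolysaccharide co-receptor of mature monocytes, was the lowest of them with at most 1.09 CPM. LYZ, the lysozyme gene of monocytes, was at 544, 482 and 1268 CPM across knockdown 1 to 3 and at 430.0, 35.3 and 980.0 CPM across the libraries labelled control 1 to 3, lowest in the library labelled control 2. That library was the lowest for 5 of the 14 markers and the highest for 5 others: HOXA9, MEIS1, ITGAM, CD4 and CD68. HOXA9, a homeobox gene of leukaemic cells, was at 88.4, 90.5 and 78.5 CPM in knockdown and 96.2, 296 and 85.5 CPM in control libraries. Of markers of other cell types, the red cell list summed to at most 0.46 CPM in knockdown and 1.09 CPM in control libraries, with HBA1, HBA2 and HBB at 0 counts, and the epithelial list to at most 0.243 CPM in knockdown and 0.284 CPM in control libraries, with EPCAM and KRT5 at 0. The T and NK cell list summed to 20.7 to 50.5 CPM in knockdown and 18.3 to 39.1 CPM in control libraries, led by NKG7 (at most 49 CPM), with CD3E and CD2 at 0. The fibroblast and endothelial list summed to 66.3 to 74.1 CPM in knockdown and 25.6 to 75 CPM in control libraries, led by PECAM1, with COL1A2 and COL3A1 at 0. The B cell list, led by PAX5, summed to 12.7 to 13.8 CPM in knockdown and 7.46 to 16.1 CPM in control libraries. The part of these markers in the results was not tested. In such bulk libraries fewer expressing cells and less RNA per cell cannot be told apart.

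Which inflammatory messengers these cells made was read from the counts, with at least 10 counts in a library taken as detected and at most 3 as the floor. Of the 15 cytokine and chemokine genes, 4 were detected in all 6 libraries: TNF, LTB, CCL5 and IL8. IL1B, CSF1, CXCL10 and CCL3 were detected in 5 of 6, and CXCL2 and CCL20 in 3 of 6. IL6, the acute-phase cytokine gene, had at most 3 counts in every library. CXCL1 and CXCL3, which encode neutrophil-attracting chemokines, had at most 5 and 1 counts. CCL2, the monocyte-attracting chemokine gene, had 7, 32.0 and 1 counts in knockdown 1 to 3 and 6.39, 0 and 0 counts in the libraries labelled control 1 to 3, so that only knockdown 2 passed 10 counts. CCL4 had 1, 5 and 16 counts in knockdown 1 to 3 and 3, 1 and 11 counts in the libraries labelled control 1 to 3, detected only in knockdown 3 and control 3. Near-identical copies of CCL3 and CCL4 have rows of their own and can share reads with them, so the levels of CCL3 and CCL4 are uncertain. CCL3L1 was at 0.551, 7.97 and 2.12 CPM in knockdown and 3.81, 1.1 and 2.05 CPM in control libraries. Its log2 difference was 0.60 (SE 0.89), against −0.53 (SE 0.66) for CCL3. CCL4L1 was at 0.209, 1.97 and 2.35 CPM in knockdown and 0.98, 0.259 and 2.12 CPM in control libraries, with at most 43.4 counts. Its log2 difference was 0.40 (SE 0.93). Detection of CCL3 and CCL4 as given here covers their own rows only. Outside this class, CD40, a TNF-receptor family gene, had at most 9 counts. IL6, CXCL1, CXCL3, CCL2, CCL4 and CD40 did not pass the filter on low counts and were not tested, which left 37 members. In all, 31 of the 43 members were detected in every library.

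**Figure D1:**
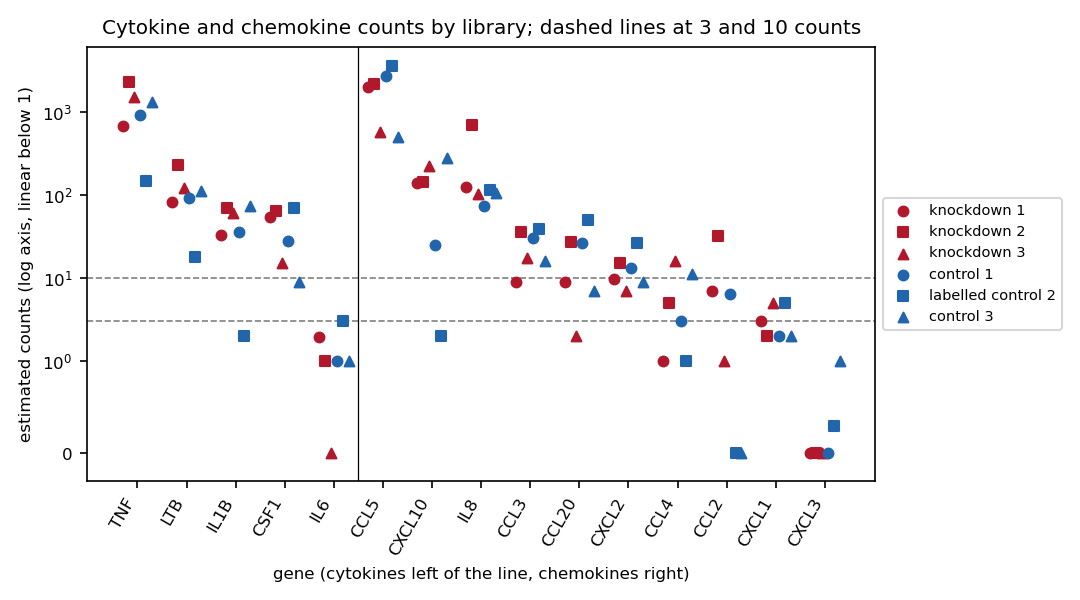
Estimated counts of the 15 cytokine and chemokine genes (y axis, logarithmic above 1 count and linear below) in each library (red, knockdown 1 to 3; blue, control 1 to 3 as labelled; circle, square and triangle for numbers 1, 2 and 3), with dashed lines at 3 and 10 counts. TNF, LTB, CCL5 and IL8 lie above 10 counts in all 6 libraries, while IL6, CXCL1 and CXCL3 lie below 10 in all of them.

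No member passed the test between knockdown and control. In edgeR's quasi-likelihood fit over 13668 genes, 0 of the 37 tested members had an adjusted p under 0.05, as did 0% of all tested genes (0 of 13668). The members' adjusted p ran from 0.926 to 0.999. At an unadjusted p under 0.05 there was 1 member, CD83, against 1.77% of all genes (242 genes); DESeq2 and limma-voom also called 0 members, with 2 and 0 at an unadjusted p under 0.05, against 3.37% and 0.856% of all genes. At that unadjusted level there were 2 members with the replicate number as a block (3.19% of all genes), 5 without control 3 (9.38%) and 5 without both libraries numbered 3 (5.55%), and 0 passed after correction in any of these. The log2 difference (knockdown minus control) was positive for 17 members and negative for 20, with a median of −0.05, and 49.9% of all genes were positive, with a median of −0.0007. Groups without overlap were seen for 2 members with higher knockdown values, CD83 and TNFAIP8, and for 1 with lower values, REL, against 3.12% of all genes in each direction. The data limit the size of a difference for only some of the genes: the median SE of a member was 0.40, against 0.33 over all genes, and 12 of the 37 members had a 95% interval within a 2-fold change either way.

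**Figure D2:**
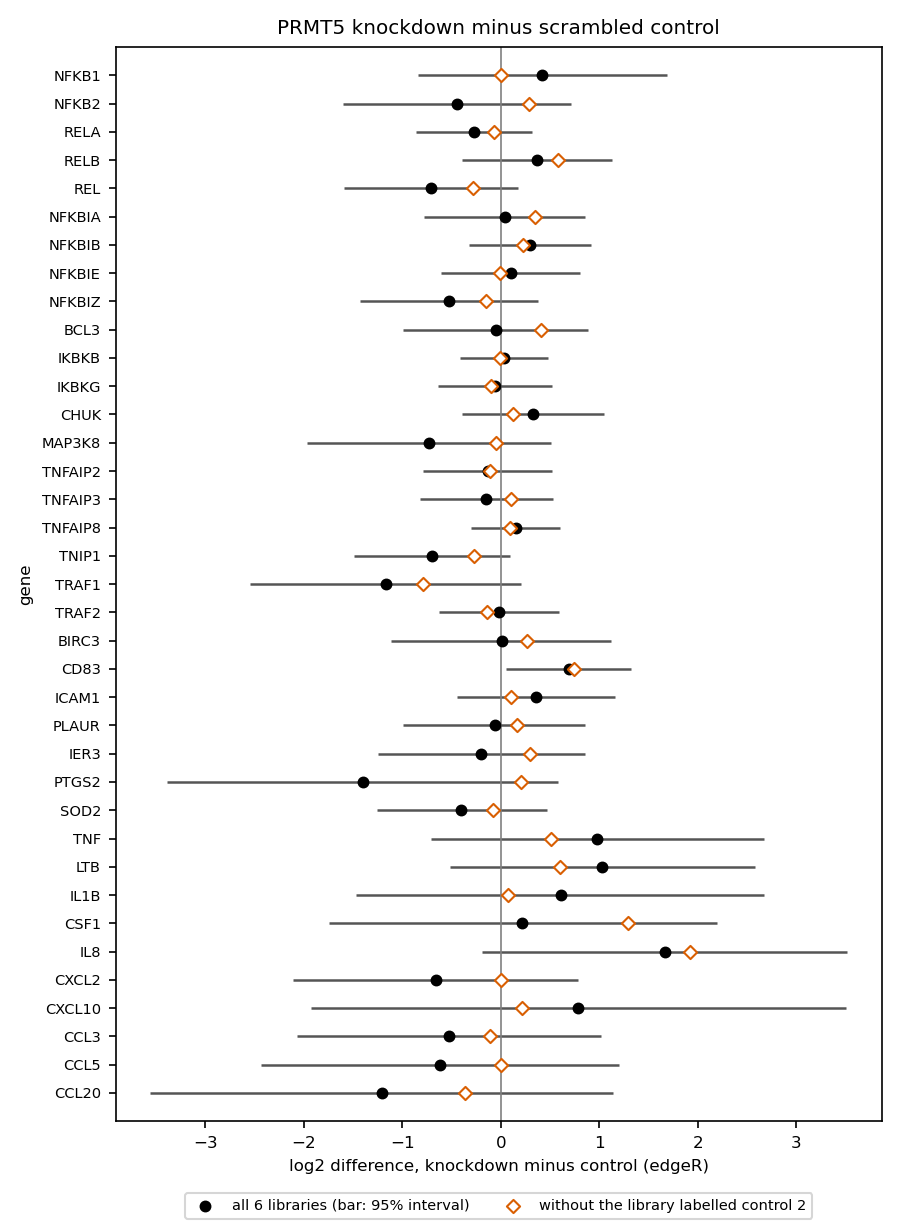
Log2 difference between knockdown and control (x axis) for the 37 tested members (rows, by role), as black points with 95% intervals from the edgeR fit of all 6 libraries and as open diamonds without the library labelled control 2. CD83 is the row whose interval (0.05 to 1.32) lies to one side of 0, and PTGS2 moves from −1.40 to 0.21 when that library is left out.

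Among the 5 subunit genes, 2 had higher and 3 had lower mean values in the fit, and 0 passed. NFKB1 encodes the precursor of the p50 subunit of the classical dimer. It was at 82.7, 65.7 and 109.9 CPM across knockdown 1 to 3 and at 63.2, 20.1 and 109 CPM across the libraries labelled control 1 to 3. The library labelled control 2 held the least by far and the other 5 overlapped, so that the log2 difference was 0.42 (SE 0.54) with that library and 0.0012 without it. RELA, the transactivating partner, was at 66.4, 51.3 and 73.4 CPM in knockdown and 60.4, 96.1 and 73.8 CPM in control libraries (log2 difference −0.27, SE 0.25), a narrow range in which the groups overlapped. NFKB2, the precursor of the non-classical pathway, was at 23.8, 50.97 and 35.2 CPM in knockdown and 29.6, 89.4 and 30.7 CPM in control libraries, highest in the library labelled control 2. Its log2 difference was −0.44 (SE 0.50) and turned to 0.29 without that library. RELB, the partner of NFKB2, was at 9.55, 13.4 and 13.5 CPM in knockdown and 6.47, 11.9 and 9.83 CPM in control libraries (log2 difference 0.37, SE 0.33); the highest and lowest libraries were knockdown 3 and control 1. REL, the c-Rel gene of blood cells, was at 6.02, 8.57 and 8.67 CPM in knockdown and 9.94, 19.1 and 8.87 CPM in control libraries. All 3 knockdown values were below all 3 control values, although knockdown 3 and control 3 differed by only −0.03 in log2 CPM. The log2 difference of REL was −0.71 (95% interval −1.59 to 0.18, edgeR adjusted p = 0.926) and −0.28 without the library labelled control 2. In that library NFKB1 was low while NFKB2, REL and RELA were at their highest, so the mix of subunit messages there was unlike the other 5.

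The IkB family and BCL3, 5 genes in all, had a median log2 difference of 0.04, and 0 passed. NFKBIA encodes the main inhibitor, IkB-alpha, and is itself an NF-kB target. It was at 35.1, 35.2 and 47.95 CPM across knockdown 1 to 3 and 21.3, 53.3 and 40.7 CPM across the libraries labelled control 1 to 3, the highest and the lowest being both controls. The log2 difference was 0.04 (SE 0.35). NFKBIB, another inhibitor gene, was at 68.8, 38.7 and 55.6 CPM in knockdown and 41.8, 39.8 and 51.03 CPM in control libraries, with its highest value in knockdown 1 and its lowest in knockdown 2. NFKBIE, a further inhibitor gene, was at 16.1, 17.3 and 25.6 CPM in knockdown and 15.3, 15.4 and 24.2 CPM in control libraries, highest in the libraries numbered 3 of both groups (log2 differences 0.30 for NFKBIB and 0.10 for NFKBIE). NFKBIZ, a nuclear IkB-like cofactor, was at 6.61, 10.2 and 13 CPM in knockdown and 11.4, 20.9 and 10.7 CPM in control libraries. Its log2 difference of −0.53 (SE 0.39) was −0.15 without the library labelled control 2, which held the highest value. BCL3, which binds dimers of p50 or p52 in the nucleus, was at 5.64, 4.79 and 6.48 CPM in knockdown and 4.003, 9.11 and 4.43 CPM in control libraries, again highest in the library labelled control 2. Its log2 difference turned from −0.05 to 0.41 without that library.

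Of the 4 kinase genes, IKBKB and IKBKG varied least between libraries and MAP3K8 most, and 0 passed. IKBKB, the catalytic subunit that marks IkB-alpha, was at 125, 108 and 136 CPM across knockdown 1 to 3 and 126, 114 and 122 CPM across the libraries labelled control 1 to 3. Its SD of log2 CPM over the 6 libraries was 0.12, against a median of 0.54 for the tested members and 0.40 for all genes, and its 95% interval of the log2 difference was −0.41 to 0.48. IKBKG, the regulatory subunit NEMO, was at 27.6, 20.9 and 33.6 CPM in knockdown and 26.6, 26.8 and 32.2 CPM in control libraries (log2 difference −0.06, SE 0.25). CHUK, the other catalytic subunit, was at 43.6, 44.7 and 51.2 CPM in knockdown and 31.8, 25.02 and 53.8 CPM in control libraries, lowest in the library labelled control 2 (log2 difference 0.33 with it and 0.12 without it). All 3 sets overlapped between groups. MAP3K8, a kinase that is held by the NFKB1 precursor and activates the ERK pathway, was at 3.77, 8.38 and 5.97 CPM in knockdown and 7.57, 17.5 and 4.95 CPM in control libraries. The library labelled control 2 held 2.09 times the next highest value, and the log2 difference was −0.73 (SE 0.53) with it and −0.05 without it.

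Of the 7 adaptor and feedback genes, 2 had positive and 5 negative log2 differences, and 0 passed. TNFAIP3 encodes a ubiquitin-editing enzyme that shuts the pathway off. It was at 119.9, 113 and 96.7 CPM across knockdown 1 to 3 and 127, 159.7 and 77.8 CPM across the libraries labelled control 1 to 3, where both the highest and the lowest value were controls (log2 difference −0.15, SE 0.29). TNIP1, which encodes a partner of that enzyme, was at 59.2, 71.2 and 87.6 CPM in knockdown and 91.6, 179.5 and 83.8 CPM in control libraries. The library labelled control 2 held 1.96 times the next highest value and knockdown 3 exceeded control 3, so the groups overlapped. The log2 difference of TNIP1 was −0.70 (95% interval −1.49 to 0.09, edgeR adjusted p = 0.926) and −0.27 without that library. TRAF1, a signal adaptor induced by NF-kB, was at 1.62, 2.86 and 2.69 CPM in knockdown and 6.57, 7.9 and 1.71 CPM in control libraries. Controls 1 and 2 as labelled stood above the other 4 libraries, and control 3 lay with the knockdown libraries. Its log2 difference was −1.17 (SE 0.59, edgeR adjusted p = 0.926), −1.95 and −1.44 between libraries numbered 1 and 2 and 0.63 between those numbered 3. TRAF2, an adaptor at TNF receptors, was at 26.3, 19.9 and 31.5 CPM in knockdown and 26.6, 21.7 and 30.6 CPM in control libraries, with overlap (log2 difference −0.02). BIRC3, which encodes an inhibitor-of-apoptosis ubiquitin ligase, was low at 1.08, 1.46 and 2.28 CPM in knockdown and 0.949, 2.12 and 1.71 CPM in control libraries (log2 difference 0.01, SE 0.48). TNFAIP8, a TNF-induced gene, was at 53.9, 60.4 and 53.1 CPM in knockdown and 52.1, 45.6 and 53.02 CPM in control libraries. All knockdown values lay above all control values, but by as little as 0.003 in log2 CPM between knockdown 3 and control 3, and the log2 difference was 0.15 (95% interval −0.30 to 0.60). TNFAIP2, another TNF-induced gene, was at 44.3, 80.8 and 82.1 CPM in knockdown and 83.2, 78.2 and 66.03 CPM in control libraries, with knockdown 1 the lowest (log2 difference −0.13, SE 0.28).

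CD83, a surface protein of activated antigen-presenting cells, had the smallest p of all members. It was at 33.8, 47.8 and 25.8 CPM across knockdown 1 to 3 and at 21.03, 23.8 and 21.8 CPM across the libraries labelled control 1 to 3. All 3 knockdown libraries lay above all 3 controls, which were close together, and knockdown 2 was the highest. The means were 35.8 ± 11.1 CPM in knockdown and 22.2 ± 1.44 CPM in control libraries (SD, n = 3 each), a log2 difference of 0.69 (SE 0.27, 95% interval 0.05 to 1.32). It did not pass after correction (edgeR adjusted p = 0.926). Between libraries with the same number the log2 CPM differed by 0.68, 1.00 and 0.24. The estimate was 0.74 without the library labelled control 2, 0.42 without knockdown 2 and 0.47 without both libraries numbered 2. ICAM1, an adhesion molecule for leukocyte integrins, was at 51.3, 87.3 and 63.6 CPM in knockdown and 68.6, 31.4 and 57.3 CPM in control libraries, highest in knockdown 2 and lowest in the library labelled control 2. Its log2 difference was 0.36 (SE 0.34) with that library and 0.10 without it. PLAUR, the urokinase receptor gene, was at 52.1, 84.2 and 37.4 CPM in knockdown and 68.4, 78.3 and 35.01 CPM in control libraries (log2 difference −0.06, SE 0.40), and the libraries numbered 3 held the least in both groups.

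The 3 remaining targets had negative log2 differences that shrank or turned without the library labelled control 2, and 0 passed. PTGS2, the inducible cyclooxygenase gene, was at 1.87, 4.91 and 2.43 CPM across knockdown 1 to 3 and at 2.95, 19.1 and 2.38 CPM across the libraries labelled control 1 to 3. That library held 3.90 times the next highest value, and the other 5 overlapped. The log2 difference was −1.40 (SE 0.85, edgeR adjusted p = 0.926) and turned to 0.21 without it. SOD2, the mitochondrial superoxide dismutase gene, was at 35.2, 53.5 and 71.05 CPM in knockdown and 43.5, 97.4 and 69.2 CPM in control libraries, a log2 difference of −0.40 (SE 0.37) with that library and −0.08 without it. IER3, an immediate early gene of cell survival, was at 12.6, 15.4 and 7.22 CPM in knockdown and 11.5, 21.3 and 7.77 CPM in control libraries, a log2 difference of −0.20 with that library and 0.30 without it.

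The 4 tested cytokine genes all had positive log2 differences, with a median of 0.79 and of 0.56 without the library labelled control 2, and 0 of 4 passed. TNF, the founding inducer of the pathway, was at 34.8, 139 and 81.2 CPM across knockdown 1 to 3 and at 52.4, 9.43 and 67.1 CPM across the libraries labelled control 1 to 3. Knockdown 2 was the highest and the library labelled control 2 the lowest, 14.7-fold apart, and the other 4 libraries overlapped, knockdown 1 lying below controls 1 and 3. The log2 difference was 0.98 (SE 0.73, 95% interval −0.71 to 2.68, edgeR adjusted p = 0.926). LTB, which lies beside TNF on chromosome 6 and encodes lymphotoxin beta, was at 4.301, 14.04 and 6.48 CPM in knockdown and 5.25, 1.17 and 5.69 CPM in control libraries. The 6 libraries had the same order for LTB as for TNF. Its log2 difference was 1.03 (SE 0.67). IL1B, the interleukin-1 beta gene, was at 1.72, 4.21 and 3.24 CPM in knockdown and 2.02, 0.1297 and 3.76 CPM in control libraries, where the library labelled control 2 had 2 counts, at the floor (log2 difference 0.61, SE 0.89). Without both libraries numbered 2 the log2 differences of TNF, LTB and IL1B were −0.04, −0.02 and −0.23, so the positive values rest on those 2 libraries. CSF1, the macrophage growth factor gene, was at 2.82, 3.89 and 0.811 CPM in knockdown and 1.59, 4.44 and 0.466 CPM in control libraries. It did not share that order: the library labelled control 2 was its highest and knockdown 3 and control 3 its lowest (log2 difference 0.22, SE 0.85; 1.29 without the library labelled control 2).

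Among the chemokine genes 6 were tested and 0 passed. The median SD of log2 CPM over the 6 libraries was 1.25 for them and 1.26 for the cytokine genes, the highest of the roles, and the largest SD of a single member was that of CXCL10 (2.30). IL8, the neutrophil-attracting chemokine now named CXCL8, was at 6.48, 42.4 and 5.51 CPM across knockdown 1 to 3 and at 4.16, 7.502 and 5.43 CPM across the libraries labelled control 1 to 3. Knockdown 2 held 7.29 times the mean of the other 5 libraries, which overlapped. The log2 difference was 1.67 (SE 0.80, 95% interval −0.19 to 3.52, edgeR adjusted p = 0.926) and 0.08 without knockdown 2. CXCL10, a chemokine gene also induced by interferon, was at 7.31, 8.56 and 12.01 CPM in knockdown and 1.42, 0.1297 and 14.5 CPM in control libraries. The 3 knockdown values were close together, while control 3 lay above them and controls 1 and 2 as labelled far below, with a 112-fold range from control 3 to the library labelled control 2, where CXCL10 had 2 counts. The log2 difference was 0.79 (SE 1.17); by number it was 2.28, 5.16 and −0.27 for libraries 1, 2 and 3. It was 0.22 without the library labelled control 2, 3.55 without control 3, 2.11 with the replicate number as a block and 2.49 in limma-voom, so its size was not fixed by these libraries. CCL5, a chemokine gene that attracts T cells and monocytes, was at 104, 132 and 30.4 CPM in knockdown and 152, 232 and 25.8 CPM in control libraries. Its lowest values were in the libraries numbered 3 of both groups and its highest in the library labelled control 2, 8.98-fold above control 3. The log2 difference of −0.62 (SE 0.78) was 0.0019 without that library. CCL20, CCL3 and CXCL2 were near the lower end of detection. CCL20, the chemokine for CCR6-bearing cells, was at 0.4699, 1.62 and 0.108 CPM in knockdown and 1.504, 3.25 and 0.363 CPM in control libraries and was lower in the knockdown library of all 3 same-numbered pairs (log2 difference −1.21, SE 1.01, −0.36 without the library labelled control 2 and −2.52 without knockdown 2). CCL3 was at 0.4699, 2.15 and 0.935 CPM in knockdown and 1.72, 2.52 and 0.8298 CPM in control libraries (log2 difference −0.53, −0.11 without the library labelled control 2 and −1.26 without knockdown 2), and CXCL2 was at 0.501, 0.911 and 0.379 CPM in knockdown and 0.738, 1.69 and 0.466 CPM in control libraries (log2 difference −0.66, and 0.0037 without that library). For both the groups overlapped.

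The library labelled control 2 was the highest or the lowest of the 6 for 26 of the 37 tested members (70.3% of them), and for 71.2% of all tested genes. It was the highest for 18 members (48.6%), against 34.5% of all genes, and the lowest for 8 (21.6%), against 36.7%, a difference that was not tested. Knockdown 2 was the highest for 8 members (21.6%), TNF, LTB, IL1B, IL8, CD83, ICAM1, PLAUR and TNFAIP8, against 13.9% of all genes. Knockdown 3 and control 3 differed by a median of 0.18 in log2 CPM over the members and 0.10 over all genes. CCL20 was the only member more than 2-fold apart between them (2.7% of members and 0.812% of all genes). It had 2 counts in knockdown 3 and 7 in control 3, both under the 10 counts taken as detected. Between knockdown 1 and control 1, 4 members were more than 2-fold apart (10.8%, against 8.1% of all genes), and between knockdown 2 and the library labelled control 2 there were 14 (37.8%, against 27.7%). The median log2 CPM difference of the members was −0.08, −0.24 and 0.12 in pairs 1, 2 and 3, and that of all genes −0.0044, 0.05 and −0.0016. The knockdown library was the higher one for 16, 14 and 29 of the 37 members in these pairs (43.2%, 37.8% and 78.4%), against 49.6%, 52.1% and 49.6% of all genes. Each of these shares comes from 1 pair of libraries, and the differences from all genes were not tested. In all 3 pairs 6 of the 37 members had a positive difference, NFKB1, RELB, NFKBIE, TNFAIP8, CD83 and IL8, against 14.6% of all genes. A negative one in all 3 pairs was seen for 3 of the 37, REL, CXCL2 and CCL20, against 14.1%. Some of these directions rest on differences near 0 in pair 3. There NFKB1, TNFAIP8, IL8 and NFKBIE had 0.01, 0.003, 0.02 and 0.08, and RELB and CD83 had 0.45 and 0.24. REL, CXCL2 and CCL20 had −0.03, −0.24 and −1.11 in that pair.

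**Figure D3:**
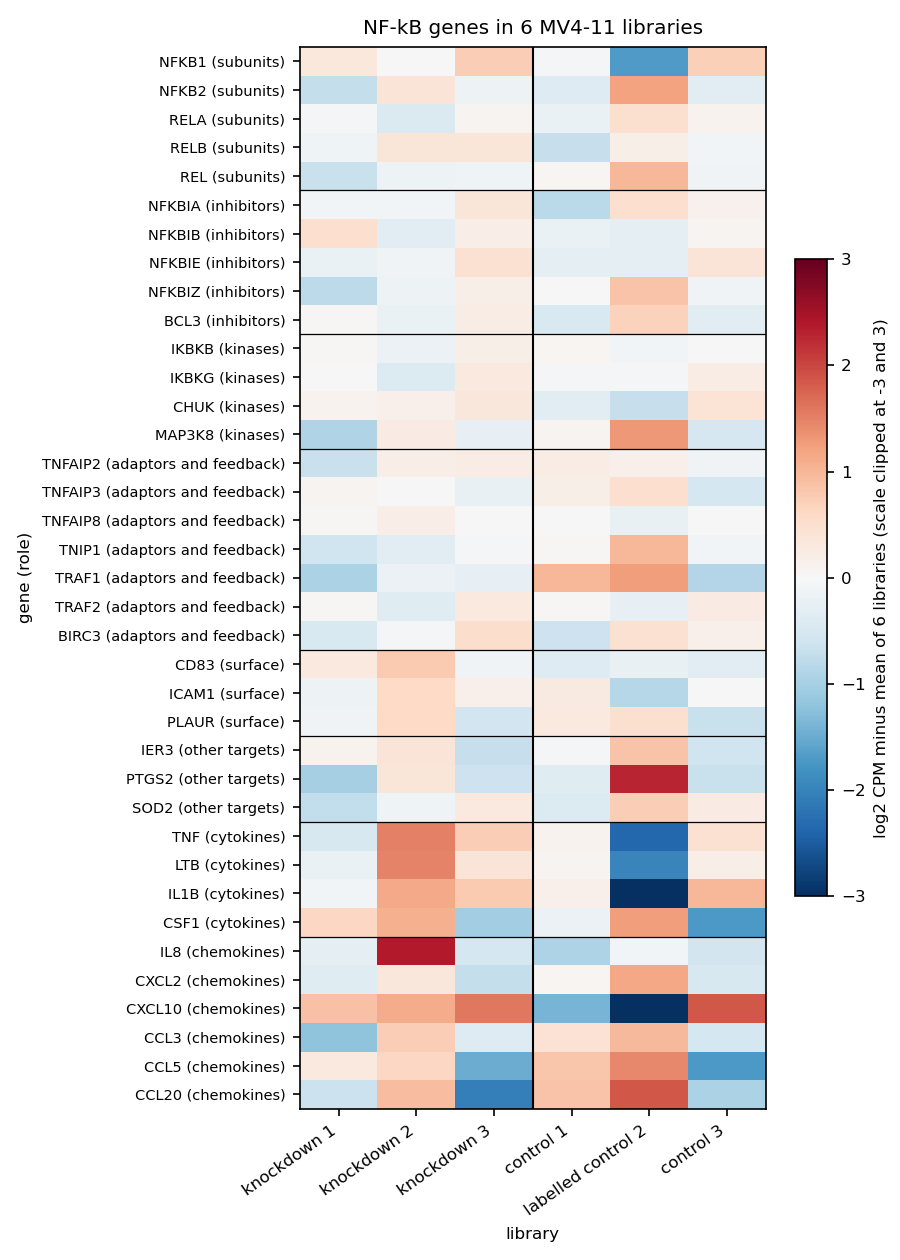
Log2 CPM of each tested member (rows, with its role) in each library (columns, knockdown left of the line and control right of it) minus the mean of the 6 libraries, red above and blue below the mean. The column labelled control 2 is red for NFKB2, REL, TNIP1 and PTGS2 and blue for NFKB1, TNF, LTB, IL1B and CXCL10, and the columns of knockdown 3 and control 3 look alike.

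**Figure D4:**
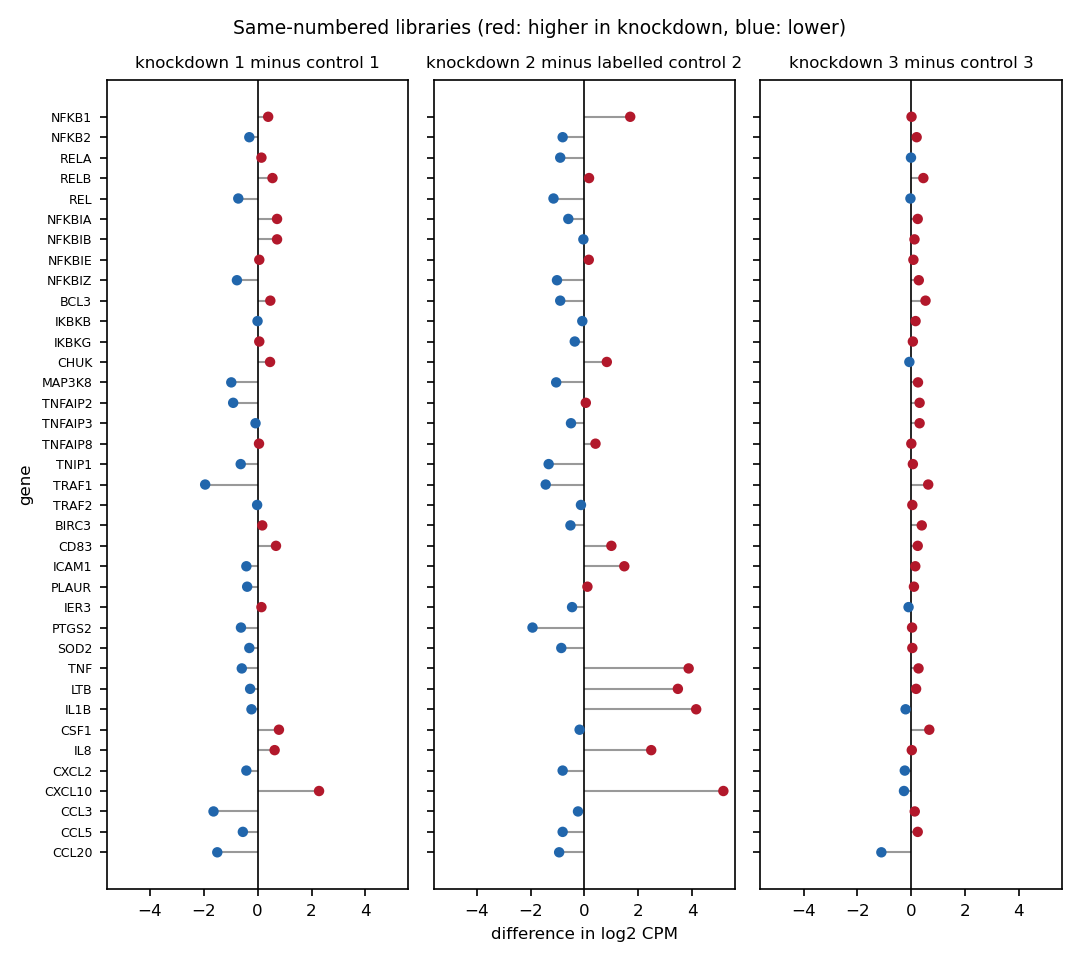
Difference in log2 CPM between knockdown and control libraries with the same number (x axis) for the 37 tested members (rows), in 1 panel per number, red where the knockdown library is higher. Differences reach 5.16 for CXCL10 in the panel of number 2, where the library labelled control 2 had 2 counts. In the panel of number 3 CCL20 (−1.11) is the only one past 1 in size, from 2 counts in knockdown 3 and 7 in control 3.

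Levels of different genes can be set side by side only per transcript length, here CPM per kilobase of the longest GENCODE v29 transcript, which exists for all 43 members. The longest transcript (11255 bases for REL and 4085 for NFKB1, for example) need not be the one expressed, so these levels depend on that choice. By the median of the 6 libraries, CCL5 stood first at 86.5 CPM per kilobase, but its libraries ran from 22.3 to 96.7 CPM per kilobase in the knockdown group and from 18.9 to 170 in the control group. PLAUR (37.4), TNF (35.7) and TNIP1 (29.2) followed, and then IKBKB (24.7), TNFAIP3 (24.6), NFKBIA (24.4) and RELA (22). These neighbours overlapped over the libraries, so their order is not fixed. NFKB1 had a median of 18.2 and NFKB2 of 9.66 CPM per kilobase, while RELB and REL had 4.74 and 0.779. Of the tested members BIRC3 was the lowest at 0.304, and IL8 had 3.52 CPM per kilobase.

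Other genes around the pathway, in 3 lists, were read from the same fit, and none passed. Of 30 upstream receptor and adaptor genes 29 were tested, 15 with positive and 14 with negative log2 differences and a median of 0.0029. TRAF3, a brake on the non-classical pathway, was at 33.9, 41.9 and 37.1 CPM across knockdown 1 to 3 and 24.1, 18.5 and 35.2 CPM across the libraries labelled control 1 to 3 (log2 difference 0.53, SE 0.28, and 0.34 without the library labelled control 2). TRAF6, the adaptor of interleukin-1 and Toll-like receptors, was at 21.6, 20 and 19.3 CPM in knockdown and 20.2, 77.7 and 20.3 CPM in control libraries, and its log2 difference of −0.95 was 0.01 without the library labelled control 2. TLR4 and LTBR, receptors for lipopolysaccharide and lymphotoxin, had log2 differences of 1.23 (SE 0.73) and 0.35 (SE 0.21), and of 0.81 and 0.26 without that library. TLR4 was low, at 1.15, 3.76 and 1.3 CPM in knockdown and 1.53, 0.259 and 0.829 CPM in control libraries. Its groups overlapped, with knockdown 1 and 3 below control 1. Of 33 other cytokine and chemokine genes 18 were tested, 13 positive and 5 negative with a median of 0.32 (0.19 without the library labelled control 2), and 11 of the 33 had at most 3 counts in every library. EBI3, a subunit of interleukins of the IL-12 family, was at 0.783, 6.81 and 2.32 CPM in knockdown and 0.993, 0.642 and 1.2 CPM in control libraries, highest in knockdown 2 as IL8 was (log2 difference 1.77, SE 0.77). LIF and OSM, cytokine genes of the interleukin-6 family, had 0.73 (SE 0.40) and 0.79 (SE 0.51), and 0.72 and 0.46 without that library. IL18, an inflammasome-processed cytokine gene, was at 8.25, 25.9 and 6.24 CPM in knockdown and 17.4, 57.5 and 5.39 CPM in control libraries, and its log2 difference of −0.99 (SE 0.87) turned to 0.24 without that library, which held the most. Of 21 receptor genes 19 were tested, 7 positive and 12 negative with a median of −0.14 (−0.02 without the library labelled control 2). CSF2RB, CSF2RA and IL3RA, subunits of the receptors for GM-CSF and interleukin-3, had log2 differences of 0.61, 0.36 and −0.45, and CXCR2, a receptor for the IL8 product, had 0.96 (SE 0.55), and 0.56 without that library. The edgeR adjusted p of each gene named from these lists was 0.926. The lists were compared with no test of their own.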

How the data were processed

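As deposited, the values are estimated counts for each gene row, 1 table per library, not scaled to depth, and in part fractions of reads (40.3% to 42.3% of entries were whole, tolerance 1e-06). Per the submitters' processing notes, CASAVA 1.9, TopHat2 version 2, edgeR and hg19 were used, with no role given. No source used here names the counting tool, the annotation or any use of strand, so overlapping and near-identical genes can share reads. Poly(A) libraries came from total RNA, per the labels' protocols.

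Counts were rounded to whole numbers. Genes kept by filterByExpr (minimum count 10) entered edgeR 4.0.16 (R 4.3.3) with TMM scaling, glmQLFit and glmQLFTest, group as the only term, two-sided, Benjamini-Hochberg over 13668 genes, threshold 0.05. SEs and 95% intervals come from that fit. Log2 CPM used a prior count of 2. DESeq2 1.42.0 and limma-voom 3.58.1 were alternatives, with other scalings, other filters and left-out libraries. Without molecular identifiers, reads are no independent molecules, so count limits cover counting error only.

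All 43 members are accounted for, and of each further list up to 4 tested genes with the smallest p are named. OTULIN was matched as FAM105B through the RefSeq synonyms. The members and lists were chosen with earlier results of these data known. Titles number the libraries 1 to 3 in each group. Deviations from the group means correlated at 0.127, 0.394 and 0.566 for the same number, each above 0.1. Knockdown 2 with control 1 reached 0.164 and the other 5 combinations −0.581 to −0.009. Within each group the deviations cancel out, so positive values bring negative ones elsewhere, and these correlations cannot decide on a pairing. Libraries of the same number were set side by side for description and in the replicate block. The main fit used group only and no pairing. The labels themselves state no pairing.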

Additional observations from a re-analysis of the deposited data

How the results depend on the processing

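The number of members past the threshold was 0 under all alternatives run, as was the number of genes. The members' median log2 difference ran from −0.21 (without control 3) to 0.10 (without the library labelled control 2), and the count with a positive difference from 14 to 24. The number of genes at an unadjusted p under 0.05, 242 with all libraries, was 33 without knockdown 1, 438 without knockdown 3, 110 without knockdown 2, 373 without control 1, 103 without the library labelled control 2 and 1307 without control 3. Among members that count was 1, and 5 without control 3 or without both libraries numbered 3, an alternative chosen after seeing the data. With the replicate number as a block, 436 genes and 2 members had an unadjusted p under 0.05, the smallest adjusted p was 0.709, and no call changed; BCL3 turned to 0.04.

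Directions that turned belong to members whose difference was not called, and the cause was not tested. BIRC3 had −0.0031 under RLE scaling and −0.0023 in DESeq2. Under total counts BCL3 had 0.04 and TRAF2 0.01, and in limma-voom BCL3 had 0.06. Without both libraries numbered 2 the values were 0.51 for BCL3, −0.13 for ICAM1, −0.23 for IL1B, 0.06 for RELA, 0.05 for IER3, −0.02 for LTB, −0.04 for TNF, 0.08 for TNFAIP3, 0.01 for TRAF2 and 0.06 for IKBKG. Without both libraries numbered 3 they were −0.10 for NFKBIA, −0.29 for BIRC3 and −0.05 for IKBKB. With each library left out in turn, ranges that crossed 0 were −0.26 to 0.41 for BCL3, −0.33 to 0.27 for BIRC3, −1.11 to 0.0019 for CCL5, −0.26 to 1.29 for CSF1, −1.07 to 0.0037 for CXCL2, −0.47 to 0.30 for IER3, −0.05 to 0.12 for IKBKB, −0.24 to 0.11 for IKBKG, −0.75 to 0.29 for NFKB2, −0.25 to 0.35 for NFKBIA, −0.14 to 0.35 for NFKBIE, −0.43 to 0.17 for PLAUR, −1.91 to 0.21 for PTGS2, −0.28 to 0.10 for TNFAIP2, −0.38 to 0.10 for TNFAIP3 and −0.19 to 0.14 for TRAF2. Without the library labelled control 2, 32 members turned or changed in size by over 1.5 times. The share of all genes that did so is not given here, so the count shows nothing particular to the members. That library was the highest or lowest for 71.2% of all tested genes. The count also includes estimates near 0, such as IKBKB, which went from 0.03 to −0.0042. Low counts limit the 6 untested members.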
